A study of Homo sapiens with 18 samples.

Results

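The D-type cyclins CCND1, CCND2 and CCND3 and their catalytic partners CDK4 and CDK6 were followed through the 3 states of human fibroblasts that this series compares. The 5 genes were chosen by name from the 38716 gene symbols in the deposited tables, with earlier results of these data known. All 5 passed the filters on low counts in both assays when the 3 states were fitted together. The cells were IMR90, a line of fetal lung fibroblasts that carries no transgene here, and 2 libraries were made from each lysate, an mRNA-seq library of poly(A)-selected RNA and a Ribo-seq library of the footprints that ribosomes shield during nuclease digestion. The young group held early-passage dividing cells, the old group cells passaged into replicative senescence, and the ICM group early-passage cells given inflachromene (ICM), a compound known to bind HMGB1 and HMGB2. Each state had 3 replicates per assay (18 libraries), which per the study's methods were independent cultures; they came from single isolates of 1 line, so the p-values measure the spread between cultures of that line. The study's text describes the replicative senescence data as generated before those of ICM, the labels name no preparation batch, and state and preparation therefore cannot be told apart.

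D-type cyclins link growth signals to the cell cycle. They bind CDK4 or CDK6, and the complexes phosphorylate the retinoblastoma protein RB1, which releases E2F transcription factors to switch on genes of DNA replication. INK4 proteins bind the kinases themselves and keep cyclins off, while CIP/KIP proteins bind the assembled complexes. Cyclin D proteins are short-lived, and cyclin D1 is known to accumulate in senescent fibroblasts.

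All 3 cyclins begin with a short stretch through which they dock onto RB1, the Leu-x-Cys-x-Glu motif. Its codons in CCND1 and CCND3 are shown because this docking site, which the 3 cyclins share, lies within the reading frame whose footprints were counted. The lines give the first 30 coding bases, 5′ to 3′ on the coding strand of GRCh37 (GENCODE v44lift37 annotation), with the codons of the motif in capitals.
CCND1: atggaacaccagCTCCTGTGCTGCGAAgtg
CCND3: atggagCTGCTGTGTTGCGAAggcacccgg
The 30 bases shown span chr11:69456082-69456111 (plus strand) in CCND1 and chr6:41909358-41909387 (minus strand) in CCND3. Within them the motif lay at codons 5 to 9 of CCND1 and at codons 3 to 7 of CCND3. The coding sequences were of similar size, 888, 870 and 879 bases in CCND1, CCND2 and CCND3, 912 in CDK4 and 981 in CDK6. The 3′ UTRs were not, and ran from 798 bases in CDK4 and 988 in CCND3 to 3192 in CCND1, 5344 in CCND2 and 10219 in CDK6. The CDK4 gene (chr12:58141510-58149796, minus strand) shares all 798 bases of its 3′ UTR with exons of TSPAN31 on the plus strand, and the CDK6 gene lies at chr7:92234235-92465887 on the minus strand.

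Depth varied more between Ribo-seq than between mRNA-seq libraries. An mRNA-seq library held 7902427 to 14144455 reads in coding genes, and a Ribo-seq library 46239 to 1718521 reads in coding sequence (CDS). In Ribo-seq, young replicate 1 and old replicate 2 stood apart, with 34.4% and 15.0% of their reads in the CDS against 54.7% to 88.8% in the others. CDS reads numbered 54421, 685061 and 1718521 in young, 1672807, 54708 and 583798 in old and 225041, 78980 and 46239 in ICM libraries. Ribo-seq replicates correlated at 0.717 to 0.978 in young, 0.752 to 0.973 in old and 0.459 to 0.661 in ICM cells (Pearson r of log2(CPM + 1)). Fibroblast markers (8 of 8 with reads) summed to between 12591 and 33008 CPM in mRNA-seq, and markers of other cell types (8 genes) to between 76.7 and 93.7 CPM, with the endothelial CDH5 at 0 and EPCAM, CDH1, PECAM1 and PTPRC at means under 1 CPM. The other 3 of that list differed between the states under a nearly flat sum, the macrophage marker CD68 at 20.9, 31.5 and 60.5 CPM in young, old and ICM cells, the epithelial KRT19 at 14.6, 0.99 and 0.50 and the muscle marker DES at 52.4, 47.1 and 20.6. Fibroblast markers as a sum were lowest in ICM, at 12591 to 12874 CPM against at least 25779.6 CPM elsewhere. By gene, COL1A1, COL1A2, VIM, THY1 and PDGFRB were lowest in ICM cells, while COL3A1 and DCN were lowest in old cells. In young, old and ICM cells DCN stood at 1434, 878 and 1623 CPM and LUM at 147, 188 and 149 CPM. The part of these markers in the results was not tested. In bulk samples such as these, fewer cells with a transcript and less of it per cell cannot be told apart.

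CCND1, the cyclin most tied to growth factor signalling in fibroblasts, was the most abundant member in every state, also per coding length. In mRNA-seq it stood at 869.6, 869.7 and 898 CPM (counts scaled to 1000000 reads in coding genes) in young cells, at 3568, 3376 and 4029 in old cells and at 1612, 1595 and 1634 in ICM cells. The groups did not overlap, with old cells highest and ICM cells in between. CCND1 mRNA was 4.44-fold higher in old than in young cells (log2 change 2.15, SE 0.07, edgeR adjusted p 5.12e-17) and 1.80-fold higher in ICM than in young cells (0.85, SE 0.07, adjusted p 1.27e-10).

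CCND1 footprints, in CPM of CDS reads, were 1148, 640.1 and 658 in young cells, 2701, 2239 and 3118 in old cells and 1728, 1735 and 1305 in ICM cells. The order of the states was that of the mRNA, and the highest young value belonged to replicate 1, which had the low CDS share and 62.5 CCND1 reads. Footprints rose by a log2 change of 1.99 (SE 0.19, adjusted p 5.38e-10) in old and of 1.13 (SE 0.20, adjusted p 5.52e-05) in ICM cells relative to young cells. Without young replicate 1 and old replicate 2 together, the changes were 2.32 (SE 0.18) and 1.18 (SE 0.17).

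CCND2, a cyclin that many cell types produce in response to mitogens, was the rarest cyclin in young cells and the one with the widest range. Its mRNA stood at 17.3, 17.2 and 16.9 CPM in young, at 168, 178 and 151 CPM in old and at 15.2, 14.6 and 13.6 CPM in ICM cells. Old cells lay far above the others, and the ICM values all lay just below the young ones. The rise in old cells was 10.3-fold (log2 change 3.37, SE 0.08, adjusted p 4.37e-19). The fall in ICM cells was small (log2 change -0.27, SE 0.10, adjusted p 0.0227), and its call was lost without young replicate 2 (adjusted p 0.0568), without ICM replicate 3 (0.0989) and with mRNA-seq CDS reads alone (0.0857).

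CCND2 footprints followed the rise in old cells. They were 45.9, 41.6 and 32.9 CPM in young, 522, 466 and 794 CPM in old and 59.2, 44.3 and 50.5 CPM in ICM cells. Old cells again stood apart, while the young and ICM ranges overlapped. The increase in old over young cells was 18.8-fold (log2 change 4.23, SE 0.25, adjusted p 4.50e-15). In ICM vs young the log2 change was 0.60 with a 95% interval from -0.35 to 1.55 (adjusted p 0.37), and the ICM libraries held only 13.3, 3.5 and 2.3 CCND2 reads. With only young and ICM cells in the fit, CCND2 footprints missed the filter on low counts. CCND2-AS1, an antisense gene of CCND2, had 99.5 reads in all 9 mRNA-seq libraries.

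CCND3, the D-type cyclin found in the widest range of tissues, was the member for which ICM cells, not old cells, held the highest level. Its mRNA stood at 99.8, 95.5 and 89.4 CPM in young, at 199, 204 and 227 CPM in old and at 358, 317 and 372 CPM in ICM cells. The groups did not overlap. CCND3 was 3.61-fold higher in ICM than in young cells (log2 change 1.85, SE 0.07, adjusted p 4.31e-16), 2.36-fold higher in old than in young cells (1.24, SE 0.07, adjusted p 1.12e-12) and 1.53-fold higher in ICM than in old cells (0.61, SE 0.07, adjusted p 5.18e-08).

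CCND3 footprints stood at 91.9, 64.2 and 66.0 CPM in young, at 216, 201 and 244 CPM in old and at 448, 158 and 375 CPM in ICM cells. Young cells were lowest, and ICM replicate 2, with 12.5 CCND3 reads, lay below the old range while the other ICM lysates lay above it. The log2 change was 2.39 (SE 0.28, adjusted p 3.48e-08) in ICM vs young and 1.87 (SE 0.24, adjusted p 1.76e-07) in old vs young. Between ICM and old cells it was 0.52 (SE 0.25, adjusted p 0.174), 0.79 without ICM replicate 2 (adjusted p 0.0207) and -0.21 without ICM replicate 1 (adjusted p 0.775).

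CDK4 was the one member whose mRNA fell in both old and ICM cells. Its mRNA stood at 174, 158 and 148.5 CPM in young, at 76.9, 75.0 and 62.6 CPM in old and at 79.6, 83.2 and 72.3 CPM in ICM cells. Young cells lay above all others, and the old and ICM ranges overlapped. The log2 change was -1.07 (SE 0.08, adjusted p 1.20e-10) in old and -1.05 (SE 0.08, adjusted p 8.40e-11) in ICM cells relative to young cells. Between ICM and old cells it was 0.01 (95% interval -0.16 to 0.19, adjusted p 0.899). With CDS reads alone, which leave out the 3′ UTR shared with TSPAN31, the changes from young were -1.17 in old and -1.12 in ICM cells.

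CDK4 footprints stood at 110.3, 83.2 and 96.6 CPM in young, at 50.8, 36.6 and 46.2 CPM in old and at 88.9, 50.6 and 21.6 CPM in ICM cells. Old cells lay below young cells, and the ICM lysates, with 20, 4 and 1 CDK4 reads, spread over both ranges. The log2 change was -0.80 (SE 0.26, adjusted p 0.0170) in old vs young and -0.40 (95% interval -1.17 to 0.37, adjusted p 0.469) in ICM vs young. With only old and ICM cells in the fit, CDK4 footprints missed the filter on low counts. The call in old vs young was lost without young replicate 2 (adjusted p 0.103), young replicate 3 (0.239), old replicate 1 (0.104) or old replicate 3 (0.0931), with DESeq2 (0.26) and with the replicate number as a block (0.0891), and it held without young replicate 1 and old replicate 2 together (0.0452).

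CDK6, the other kinase, whose transcript is mostly 3′ UTR, changed in the opposite direction. Its mRNA stood at 123, 135 and 155 CPM in young, at 359.8, 357 and 384 CPM in old and at 246, 227 and 247 CPM in ICM cells. The groups did not overlap and had the order of CCND1, with old highest. CDK6 mRNA was 2.84-fold higher in old (log2 change 1.51, SE 0.07, adjusted p 6.10e-14) and 1.71-fold higher in ICM than in young cells (0.77, SE 0.07, adjusted p 2.93e-09).

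CDK6 footprints stood at 18.4, 59.8 and 90.2 CPM in young, at 228, 256 and 262 CPM in old and at 182, 304 and 238 CPM in ICM cells. All young lysates lay below all others, and the lowest, replicate 1, rested on 1 read. The log2 change was 1.80 (SE 0.22, adjusted p 8.84e-08) in old vs young and 1.55 (SE 0.30, adjusted p 1.20e-04) in ICM vs young. Without young replicate 1 and old replicate 2 these were 1.78 (SE 0.24) and 1.37 (SE 0.30), and between ICM and old cells the change was -0.25 (95% interval -0.78 to 0.29, adjusted p 0.612).

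**Figure D1:**
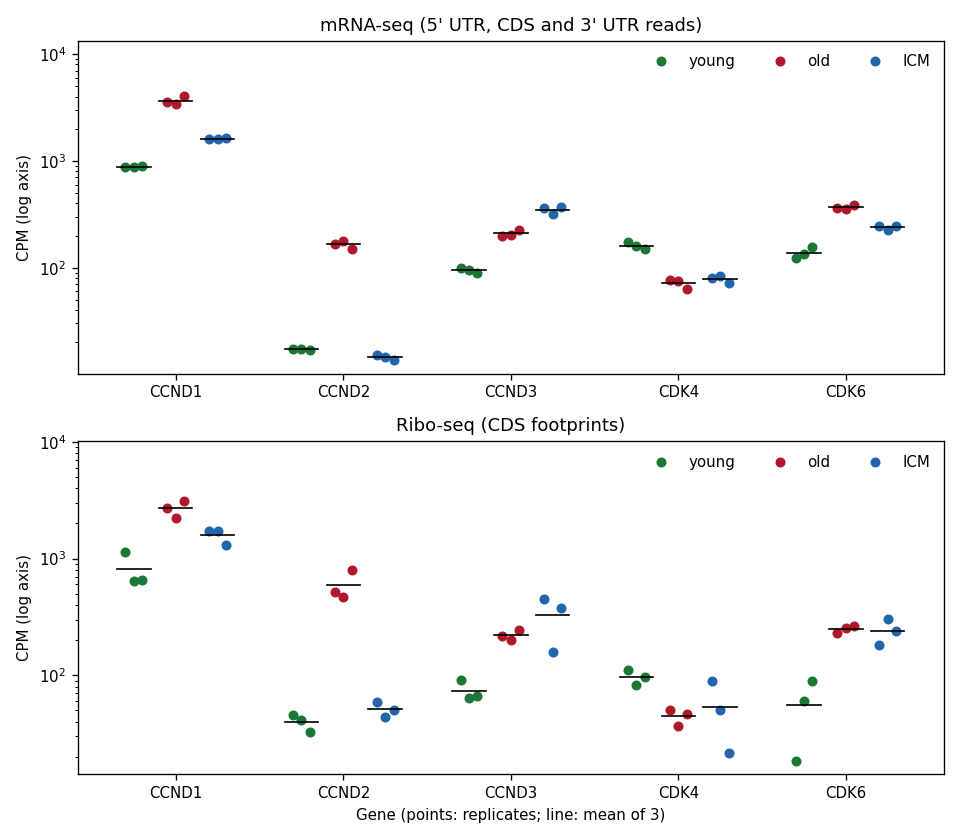
Level of each member in every library, in CPM on a log axis, for mRNA-seq (upper panel) and Ribo-seq (lower panel). Points are replicates coloured by state and lines are means of 3. CCND1, CCND2 and CDK6 are highest in old cells in mRNA-seq, CCND3 is highest in ICM cells and CDK4 is highest in young cells, and the Ribo-seq points are more spread.

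By comparison, 5 of the 5 members were called in mRNA-seq in old vs young (4 up, 1 down), where 66.1% of all 13173 genes tested were called (32.4% up and 33.7% down). In ICM vs young, 5 were called (3 up, 2 down), against 71% of all genes (34.9% up and 36.1% down). In ICM vs old, 4 were called (1 up, 3 down), against 63.3% of all genes (30.7% up and 32.6% down). A call in mRNA-seq was thus common among all genes. The median log2 change of the members was 1.51, 0.77 and -0.73 in these comparisons, beside -0.01, -0.01 and -0.01 over all genes.

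In Ribo-seq, 5 members were called in old vs young (4 up, 1 down), against 36.3% of 4643 genes. In ICM vs young, 3 were called, all up (CCND1, CCND3 and CDK6), against 26.6%. In ICM vs old, 2 were called, both down (CCND1 and CCND2), against 13.4%. CCND2 fell most there, with a log2 change of -3.63 (SE 0.33, adjusted p 1.09e-10) in footprints and -3.64 (SE 0.08) in mRNA, and CCND1 had a log2 change of -0.86 (SE 0.19) in footprints and -1.30 (SE 0.07) in mRNA. These comparisons share libraries and are not independent of each other.

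**Figure D2:**
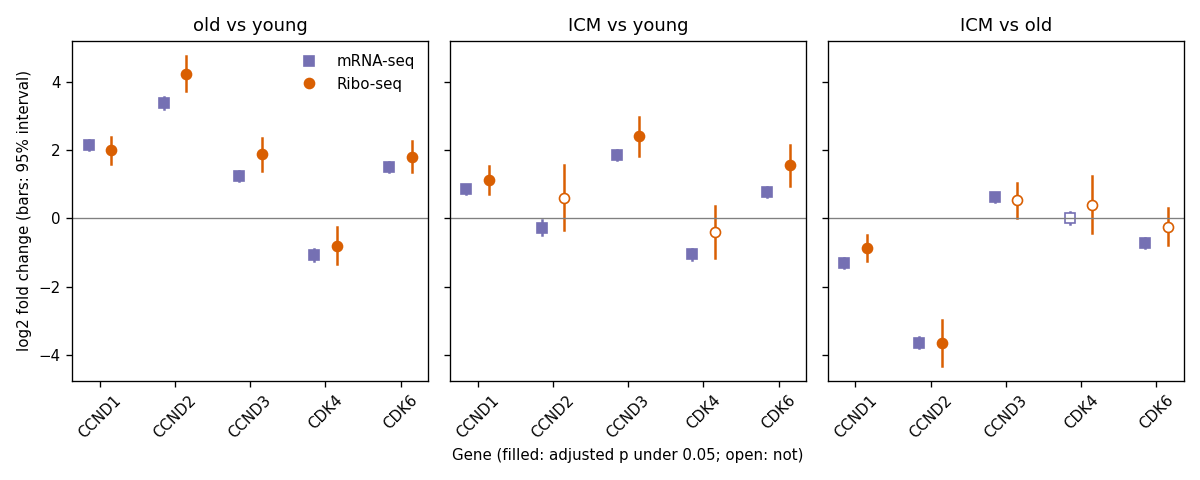
Log2 fold change of each member in the 3 comparisons, in mRNA-seq (squares) and Ribo-seq (circles), with 95% intervals as vertical bars. Filled symbols passed an adjusted p of 0.05. The intervals of the 2 assays overlap except for CCND2 in old vs young and CDK6 in ICM vs young, the Ribo-seq intervals are wider, and CDK4 is the only member below 0 in both assays in old vs young.

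Translational efficiency, or footprints relative to mRNA, was tested in edgeR as an assay by state interaction over all 18 libraries. It was called for 0 of 5 members in each comparison, by edgeR and by DESeq2, against 1.45% of 4618 genes in old vs young, 2.45% in ICM vs young and 0.26% in ICM vs old. At an unadjusted p under 0.05 there were 2, 1 and 0 members. In old vs young these were CCND2, with a log2 change of 0.92 (SE 0.29, adjusted p 0.118), and CCND3, with 0.64 (SE 0.25, adjusted p 0.234). In ICM vs young it was CDK6, with 0.89 (SE 0.29, adjusted p 0.0977). The narrowest interval was that of CCND1 in old vs young, from -0.49 to 0.28, and the widest that of CCND2 in ICM vs young, from -0.24 to 1.89, and changes within the latter were not detectable at this depth. The call for CCND2 in old vs young was gained with only the compared groups (adjusted p 0.0295), without ICM replicate 1 (0.0365) and without the lysate block (0.0123), and the adjusted p reached 0.998 without young replicate 2. CCND3 too was called without the lysate block (0.70, adjusted p 0.0310). The deviations of the 2 libraries of a lysate from their group means correlated at -0.0735 to 0.119 across genes.

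The ratio itself differed widely between members. Over CDS reads alone, which makes the length of a gene cancel, the log2 ratio of footprint to mRNA CPM of CCND2 averaged 3.19 ± 0.15 in young cells, 3.99 ± 0.38 in old cells and 3.99 ± 0.36 in ICM cells (mean ± SD, n = 3). That of CDK6 was 1.36 ± 1.01, 2.38 ± 0.32 and 2.82 ± 0.37, and that of CCND1 1.13 ± 0.46, 0.84 ± 0.07 and 1.24 ± 0.32. CCND3 lay near 0, at -0.19 ± 0.30, 0.25 ± 0.05 and -0.06 ± 0.68, and CDK4 lowest, at -0.93 ± 0.14, -0.81 ± 0.38 and -0.91 ± 0.95. The 9 lysate values of CCND2, from 3.04 to 4.43, all lay above those of CCND1, which ended at 1.67, and of CCND3, which ended at 0.49. The lowest CDK6 value, 0.23, was young replicate 1. The old lysates lay above the young ones without overlap for CCND2 and CCND3. For CCND3 the nearest were young replicate 1 at 0.15 (5 footprint reads) and old replicate 2 at 0.20 (11 reads). CCND2 rested on 2.5 footprint reads in young replicate 1 and on 3.5 and 2.3 in ICM replicates 2 and 3.

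**Figure D3:**
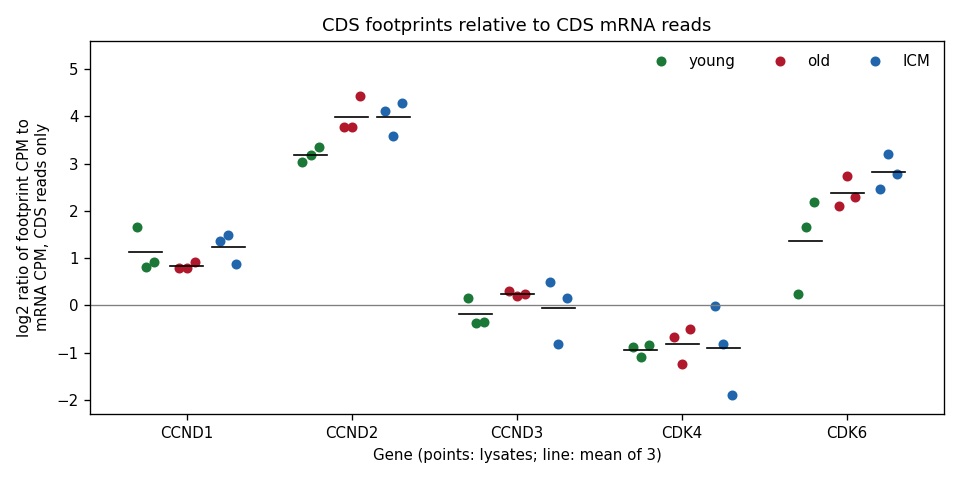
Log2 ratio of footprint CPM to mRNA CPM over CDS reads for each member, with 1 point per lysate, the line at the mean of 3 and states in colour. CCND2 lies above 3 in all 9 lysates, and CDK4 below 0 in all 9, and the young and old points do not overlap for CCND2 and CCND3. In young replicate 1 the CCND2 and CCND3 points rest on 2.5 and 5 footprint reads.

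Because the genes differ in length, their levels were set beside each other as CPM of CDS reads per 1000 coding bases. In mRNA-seq, young cells had the order CCND1 (403 ± 7.41), CDK4 (201 ± 17.8), CCND3 (94.8 ± 0.54), CDK6 (18.5 ± 2.28) and CCND2 (5.14 ± 1.36; mean ± SD, n = 3), with no overlap between neighbours. Old cells had the order CCND1 (1687 ± 205), CCND3 (211 ± 19.4), CDK4 (85.1 ± 11.7), CDK6 (49.2 ± 8.51) and CCND2 (41.8 ± 2.61), where the last pair overlapped. ICM cells had CCND1 (753 ± 50.0), CCND3 (354 ± 34.8), CDK4 (94.6 ± 5.71), CDK6 (34.2 ± 1.16) and CCND2 (3.72 ± 0.67). CCND3 and CDK4 thus exchanged places between young cells and the other states.

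In footprints per 1000 coding bases, CCND1 led everywhere, at 918 ± 325 CPM in young, 3025 ± 495 in old and 1790 ± 277 in ICM cells. In young cells CDK4 (106 ± 14.8), CCND3 (84.2 ± 17.6) and CDK6 (57.2 ± 36.8) followed with overlapping ranges, and CCND2 (46.1 ± 7.65) overlapped CDK6. In old cells CCND2 came next (683 ± 202), then CDK6 (254 ± 18.3) and CCND3 (250.5 ± 24.5), which did not differ beyond their spread, and CDK4 was last (48.8 ± 7.98). In ICM cells CCND3 (372 ± 171) and CDK6 (246 ± 62.1) overlapped, as did CCND2 (59.0 ± 8.63) and CDK4 (58.9 ± 36.98).

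The make-up of the cyclin pool followed from these levels. By CDS mRNA reads per coding length, CCND1 made up 80.2%, 80.2% and 79.98% of the D-type cyclins in young cells, 87.7%, 85.9% and 87.1% in old cells and 67.5%, 68.6% and 67.3% in ICM cells. CCND3 made up 18.8% ± 0.38 in young, 10.9% ± 0.85 in old and 31.9% ± 0.75 in ICM cells, and CCND2 1.02% ± 0.26, 2.17% ± 0.16 and 0.34% ± 0.08. The states did not overlap in any of the 3 shares. A 3 against 3 exact permutation test (two-sided) cannot give a p under 0.1, which it gave for each of these differences (0.12 adjusted over 30 comparisons).

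In footprints CCND2 made up 15.4%, 16.3% and 19.4% of D-type cyclin footprints in old cells. Its share was 3.64%, 5.68% and 4.42% in young cells and 2.70%, 2.33% and 2.97% in ICM cells. The states did not overlap (exact permutation p 0.1 each, n = 3). The young shares rested on 2.5, 28.5 and 56.5 CCND2 reads and the ICM shares on 13.3, 3.5 and 2.3. The gap between young and ICM cells was small for so few reads. CCND1 made up 87.2% ± 1.79 in young and 76.6% ± 1.79 in old cells (exact permutation p 0.1, n = 3) and stood at 80.6% ± 7.72 in ICM cells, which overlapped both. CCND3 made up 8.23% ± 0.89 in young, 6.39% ± 0.54 in old and 16.8% ± 7.42 in ICM cells.

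The kinase pool was described in the same way. CDK6 made up 6.70%, 9.01% and 9.73% of CDK4 and CDK6 mRNA per coding length in young cells, 37.7%, 29.4% and 43.0% in old cells and 25.5%, 25.5% and 28.7% in ICM cells. In footprints the values were 13.4%, 40.1% and 46.5% in young, 80.7%, 86.7% and 84.0% in old and 65.6%, 84.8% and 91.1% in ICM cells. Young cells lay below the others in both assays, without overlap (exact permutation p 0.1, the smallest possible, n = 3 each), and the old and ICM footprint shares overlapped.

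The summed cyclins were also set against the summed kinases. The log2 ratio of the sums in mRNA averaged 1.20 ± 0.09 in young cells, 3.85 ± 0.21 in old cells and 3.11 ± 0.15 in ICM cells (exact permutation p 0.1 for each pair, n = 3). Summed cyclin mRNA per coding length was 3.86-fold that of young cells in old and 2.21-fold in ICM cells, and summed kinase mRNA was 0.61-fold and 0.59-fold. In footprints the ratio averaged 2.65 ± 0.65 in young cells, 3.70 ± 0.22 in old cells and 2.87 ± 0.29 in ICM cells. Summed kinase footprints were 1.85-fold and 1.87-fold those of young cells in old and ICM cells. Some lysates held few kinase reads, with 6 for CDK4 and 1 for CDK6 in young replicate 1. ICM replicate 3 held 1 for CDK4 and 11 for CDK6. Translational efficiency was called for neither kinase. ICM and young cells overlapped in the footprint ratio (exact permutation p 0.7, n = 3). Counted over all transcript regions without scaling to length, where the long 3′ UTR of CDK6 enters, the log2 ratio in mRNA differed from that of young cells by 1.46 in old and by 0.90 in ICM cells, against 2.65 and 1.91 by CDS reads, and the CCND1 share by 1.96 percentage points in old cells, against 6.77.

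**Figure D4:**
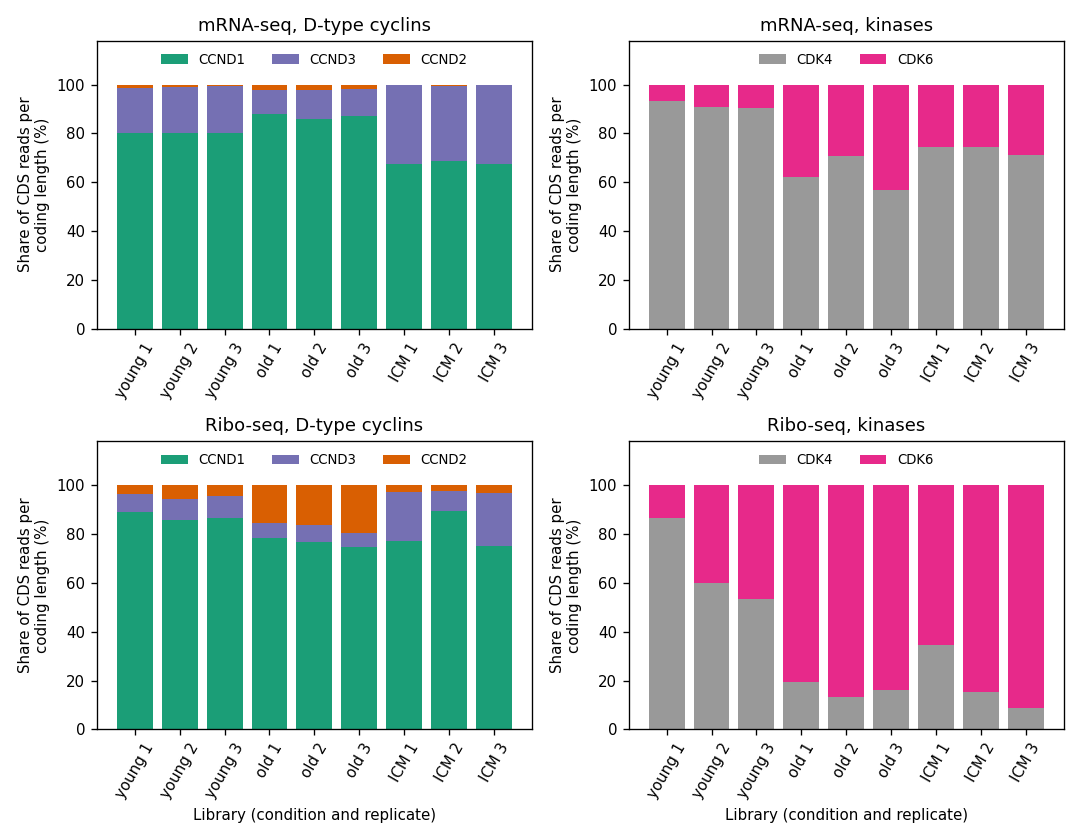
Share of each D-type cyclin (left) and of each kinase (right) in CDS reads per coding length, in percent, for every library, with mRNA-seq above and Ribo-seq below. CCND2 reaches 15.4% to 19.4% of cyclin footprints in the 3 old lysates, and CDK6 passes 65% of kinase footprints in all old and ICM lysates.

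The ratio of 3′ UTR to CDS reads in mRNA-seq, a readout of which ends of the transcripts were sampled, changed for 1 member. For CDK4 the 3′ UTR held 12.3%, 14.0% and 10.2% of reads in young, 20.3%, 18.9% and 19.9% in old and 15.3%, 18.2% and 14.3% in ICM cells. The groups did not overlap. The log2 ratio rose by 0.84 (SE 0.16, limma adjusted p 0.0300) in old vs young, where 1.6% of 8179 genes were called, and was 0.49 higher (SE 0.16, adjusted p 0.154) in ICM vs young, against 4.25% called, and -0.35 (adjusted p 0.507) in ICM vs old, against 1.74%. All bases of this 3′ UTR are also exons of TSPAN31, whose mRNA stood at 85.0 ± 9.23 CPM in young, 63.3 ± 3.87 in old and 65.3 ± 0.99 in ICM cells. The 3′ UTR to CDS log2 ratio of TSPAN31 itself changed by -1.26 (SE 0.11, limma adjusted p 3.15e-04) in old vs young. In ICM vs young it changed by -1.43 (SE 0.11, limma adjusted p 5.73e-05). The part of TSPAN31 reads in the CDK4 ratio was not tested. The CDK4 call was lost with the replicate number as a block (adjusted p 0.0588) and without any 1 of young replicate 1 or 3, old replicate 1, 2 or 3, or ICM replicate 1 (adjusted p 0.0530 to 0.107).

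For the other members the ratio was not called in any comparison. The 3′ UTR held 65.9% ± 0.42 of CCND1 reads, 77.5% ± 6.25 of CCND2, 34.7% ± 3.72 of CCND3 and 88.1% ± 1.23 of CDK6 reads in young cells. In old cells these shares were 67.1%, 81.0%, 35.8% and 88.5%, with SDs of at most 2.81 percentage points. The 95% interval of the log2 change in old vs young ran from -0.22 to 0.35 for CCND1 and from -0.30 to 0.44 for CDK6.

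Around the members, 42 further genes of the pathway were examined, of which 41 were tested in mRNA-seq. In old vs young, 11 rose and 16 fell, and in ICM vs young 9 rose and 21 fell. In ICM vs old, 6 rose and 19 fell. The shares called lay near those of all genes (66.1%, 71% and 63.3% in either direction). Their median log2 change was -0.07, -0.25 and -0.25, beside -0.01 over all genes each time. With an absolute log2 change over 0.6 also required, 16, 19 and 12 were called. Genes beyond the largest changes of each list are named below because their counts were small, after their values were seen. In Ribo-seq 15 were tested. CDKN1A, CDKN2A and CDC37 rose and CCNA2 and CCNH fell in old vs young, CDKN1A and JUN rose and CCNA2 fell in ICM vs young, and CDKN1A and CCNH rose and CDKN2A fell in ICM vs old. These totals of 5, 3 and 3 stand beside 36.3%, 26.6% and 13.4% of all genes called. They became 2, 1 and 1 without young replicate 2, and reached 9 without ICM replicate 2 in old vs young and 7 and 6 without ICM replicate 3 in the others. Translational efficiency was called for 0 of the 15 in each comparison.

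The counts in each list below are to be read beside the shares of all genes called in mRNA-seq, 32.4% up and 33.7% down in old vs young and 34.9% up and 36.1% down in ICM vs young. Of 7 INK4 and CIP/KIP genes, 4 rose and 3 fell in old vs young, and 3 rose and 4 fell in ICM vs young. CDKN2C, an INK4 inhibitor of CDK4 and CDK6, changed most by the rule used, at 21.1 ± 1.64 CPM in young, 5.16 ± 0.66 in old and 2.27 ± 0.52 in ICM cells, a log2 change of -1.94 (SE 0.13, adjusted p 1.14e-11) and -3.21 (SE 0.15, adjusted p 1.38e-14). CDKN1A, the CIP/KIP inhibitor p21, rose by 1.59 (SE 0.06) in old and by 2.69 (SE 0.07) in ICM cells, CDKN2B by 1.40 (SE 0.08) and 0.55 (SE 0.08), and CDKN2D by 1.05 and 0.68. CDKN2A, which encodes p16 and shares near-identical sequence with CDKN2B so that both are uncertain, rose by 0.60 (SE 0.09) in old cells and fell by 0.25 (SE 0.09) in ICM cells. CDKN1B and CDKN1C fell in both, with log2 changes of -0.94 and -1.31 in old and -0.75 and -0.81 in ICM cells.

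Of 10 RB family and E2F partner genes, E2F3 rose and E2F1, E2F2, E2F5 and RBL1 fell in old vs young, while in ICM vs young none rose and those 4 fell together with E2F4 and TFDP1. E2F1, an activating E2F, stood at 24.3 ± 2.62 CPM in young, 19.6 ± 0.68 in old and 5.40 ± 0.76 in ICM cells (log2 change -2.20, SE 0.12, adjusted p 2.98e-13, in ICM). RBL1, which encodes the RB relative p107, went from 12.6 ± 1.15 to 6.16 ± 1.08 CPM in old cells (log2 change -0.93, SE 0.14, adjusted p 6.89e-06). Of 9 later cyclins, kinases and activating enzymes, CCNE1, CDC37 and CDK7 rose and CCNA2, CCNE2 and CDC25A fell in old cells, and CCNH rose and CCNA2, CCNE2, CDC25A, CDK2 and MNAT1 fell in ICM cells relative to young. CCNA2, the S-phase cyclin, fell by 1.26 (SE 0.08) on the log2 scale in old and by 3.70 (SE 0.10) in ICM cells.

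Of 8 genes for turnover of cyclin D proteins, CRYAB rose and AMBRA1, FBXO4 and SKP2 fell in old vs young, and CRYAB, CUL4A and DDB1 rose and AMBRA1 and SKP2 fell in ICM vs young. AMBRA1, the substrate receptor of a ubiquitin ligase for D-type cyclins, had log2 changes of -0.48 (SE 0.10) and -0.72 (SE 0.10). CRYAB, a chaperone that works with FBXO4, rose from 3.51 ± 0.29 to 7.06 ± 1.33 CPM in old and 7.34 ± 0.97 CPM in ICM cells. Of 8 transcription factors upstream of cyclin D genes, 7 were tested. JUN and STAT3 rose in both old and ICM cells, EGR1, FOXO3 and MYC fell in both, and CTNNB1 fell in ICM cells. EGR1, an immediate early factor, stood at 94.9 ± 18.7 CPM in young, 31.0 ± 12.7 in old and 8.68 ± 3.42 in ICM cells.

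**Figure D5:**
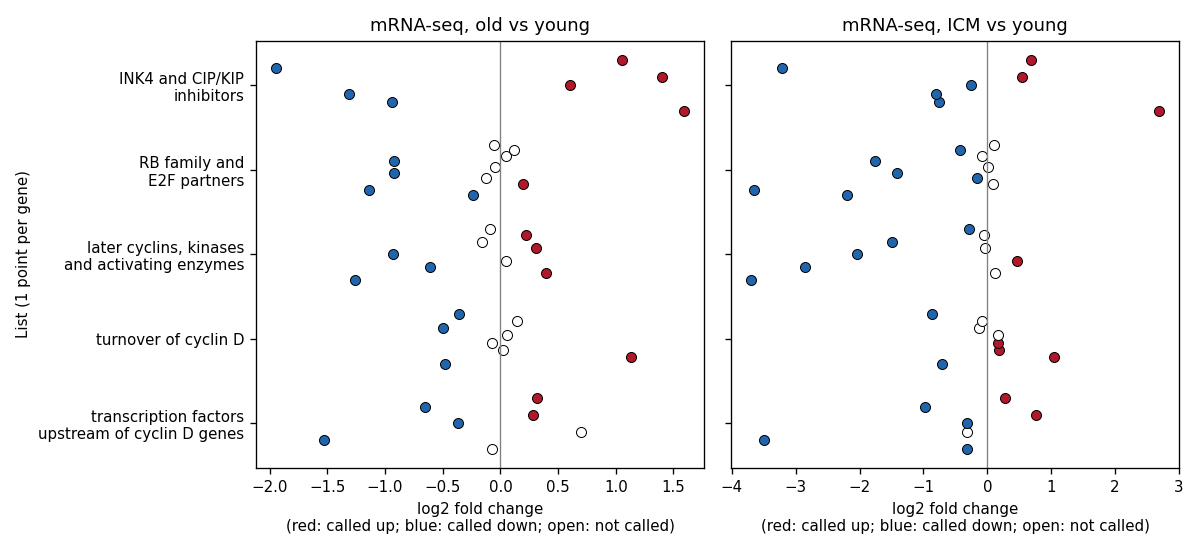
Log2 fold change in mRNA-seq of the 41 tested pathway genes, 1 point per gene, in 5 lists, for old vs young (left) and ICM vs young (right; the axes differ in range). Red points were called up, blue down and open ones not called. Among RB family and E2F partners, 6 of 10 are called down and 0 up in ICM vs young, where 36.1% of all genes were called down and 34.9% up.

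The genes whose mRNA pattern was most like that of each member, by Pearson correlation of log2(CPM + 1) over the 9 mRNA-seq libraries among 10814 genes, were as follows. The 9 points form 3 groups and share library depth, so the coefficients mostly restate the order of the states and are a description. CCND1 was closest to CEMIP2 (r = 0.999), FCGRT and TGFBR2, a receptor subunit for TGF-beta that stood at 193, 893 and 371 CPM in young, old and ICM cells. CCND2 was closest to BHLHE40 (r = 0.999), PRKCE and SGCD, and CCND3 to SLC22A23 (r = 0.998), SCAMP2 and APBA1. CDK4 was closest to THOC6 (r = 0.998), DSE and TTF2. CDK6 was closest to WNT5A (r = 0.999), a secreted Wnt ligand at 375, 729.6 and 544 CPM in young, old and ICM cells, CRYL1 and TMEM30A.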

How the data were processed

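mRNA-seq and Ribo-seq were measured in 9 libraries each, grouped by their titles. The values in the deposited tables are estimated counts by gene symbol and transcript region, without scaling to depth; between 14.1% and 23.2% of non-zero values per library were not whole. The submitters' processing notes name GRCh37, STAR 2.6.0c and featureCounts without a role; how reads with several matches or from both strands were counted is not given in the sources used here. The labels describe Trizol and total RNA, while the study's methods describe a cycloheximide lysate divided between both assays, on which the lysate block rests.

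5′ UTR, CDS and 3′ UTR reads were summed for mRNA-seq and CDS reads used for Ribo-seq, as in the study's methods, rounded, and tested over all genes in edgeR 4.0.16 (R 4.3.3; glmQLFTest, TMM, filterByExpr, 9 libraries per fit, two-sided, Benjamini-Hochberg, adjusted p under 0.05). Translational efficiency was the assay by state interaction over 18 libraries with lysate as a block. The 3′ UTR to CDS ratio was tested in limma 3.58.1 (pseudocount 0.5, at least 20 mean reads per region). The study used anota2seq and a threshold of 0.15; the former was not used here. Coding lengths came from GENCODE v44lift37, in place of the RefSeq proteins planned. Pools were compared by two-sided exact permutation tests. The scripts were tested on simulated data. The members and lists were chosen with earlier results of these data known. Pathway genes were first named by 1 rule: per list, the largest called mRNA change with a mean of at least 5 CPM, in each comparison with young cells. Further pathway genes were named outside this rule, after their values were seen. Intervals of log2 changes come from the fits and include the spread between replicates, and binomial intervals cover counting error only. DESeq2 1.42.0, RLE scaling, other filters, blocks and left-out lysates were tried. Some sequence is not reported here.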

Additional observations from a re-analysis of the deposited data

Results flagged for a closer look

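Footprints outside the CDS took no part in the comparisons. In the 3′ UTR of 4 members they exceeded, in every old lysate, the highest young lysate, which flagged them. In reads per 1000000 CDS reads of the library, the mean of the 3 old lysates was 531 (SD 632, 460 reads, lowest 152) for CCND1, against at most 91.9 in young cells. It was 118.4 (SD 151, 82 reads, lowest 26.9) for CCND2 against at most 1.46, 14.5 (SD 19.1, 10 reads, lowest 3.43) for CCND3 against 0, and 65.4 (SD 70.1, 60 reads, lowest 20.9) for CDK6 against at most 18.4. CDK4 had 0 reads there in all 9 lysates. Its old lysates held 90, 2 and 29 footprints in the 5′ UTR, CDS and 3′ UTR. The exact binomial upper bounds of these zeros were 4.02%, 84.2% and 11.9%. The scale per 1000000 CDS reads rises with a gene's own level. As a share of its own footprints in the 5′ UTR, CDS and 3′ UTR, the 3′ UTR of CCND1 held 7.35%, 1.56% and 1.98% in the young and 6.26%, 35.6% and 4.66% in the old lysates, so that by share 2 old lysates lay below young replicate 1. For CDK6 the share was 50% (1 of 2 reads), 0% (upper bound 6.72%) and 1.18% in the young and 7.68%, 33.3% and 9.60% in the old lysates, which overlap as well. For CCND2 it was 0%, 3.33% and 0% (upper bounds of 84.2% and 6.16% for the zeros) against 4.89%, 38.1% and 4.33%, and for CCND3 0% in each young lysate (0 of 5, 45 and 114 reads, with exact binomial upper bounds of 52.2%, 7.87% and 3.18%) against 1.63%, 15.4% and 1.38%. The highest value per 1000000 CDS reads was in each case old replicate 2, the lysate with the lowest CDS share, where the CCND1 share rested on 69 of 194 reads (exact binomial 95% interval 28.8% to 42.7%). Over all genes, the 3′ UTR held 3.84, 36.4 and 6.02 footprints per 100 CDS footprints in the old lysates, 16.0, 2.05 and 1.46 in the young and 1.84, 2.48 and 3.34 in the ICM lysates, and the part of this in the members' values was not tested.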

How the results depend on the processing

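Of the values of single members under the alternatives, 953 kept their direction and side of the threshold, 17 lost a call, 7 gained one and 24 changed sign. Of the counts and pool values, 448 stayed within the limits set for them and 50 did not. The ICM Ribo-seq libraries limit what can be seen, with 1 to 20 CDK4 reads each.

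None of the sign changes concerned a value past the threshold. For CDK4 mRNA in ICM vs old the log2 change was -0.077 without old replicate 3 and -0.041 without ICM replicate 2 (leave-one-out range to 0.077). Without ICM replicate 1, CDK4 and CCND3 footprints in ICM vs old changed by -0.56 and -0.21 (ranges to 0.51 and 0.79). For translational efficiency in ICM vs young, CCND1 was at -0.017 with no filter, and without ICM replicate 1 CDK4 was at -0.39 (range to 0.68) and CCND3 at -0.20 (to 0.67). In old vs young, CCND1 was at 0.0046 without the lysate block, 0.0032 without old replicate 2 (range from -0.32) and 0.065 without both lysates of low CDS share. In ICM vs old, CDK4 was at -0.66 without ICM replicate 1 (range to 0.43), CCND2 at 0.27 without old replicate 3 (range from -0.39) and CCND3 at 0.024 without ICM replicate 2 (from -0.86).

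The leave-one-out ranges of the 3′ UTR to CDS ratio that crossed 0 were, in ICM vs young, -0.066 to 0.041 for CCND1 and -0.11 to 0.098 for CCND3. In old vs young they were -0.023 to 0.14 for CCND1, -0.022 to 0.19 for CCND3 and -0.093 to 0.18 for CDK6. In ICM vs old they were -0.16 to 0.0081 for CCND1, -0.18 to 0.080 for CCND2 and -0.23 to 0.036 for CDK6. The count of members called in old vs young ran from 0 to 1.

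With an absolute log2 change over 0.6, mRNA-seq called 19, 16 and 12 pathway genes for ICM vs young, old vs young and ICM vs old. In Ribo-seq, DESeq2 called 2 pathway genes in old vs young but 1 in ICM vs old. Without 1 lysate the counts ran from 1 to 7, 2 to 9 and 1 to 6 in those 3 comparisons. For translational efficiency, an adjusted p under 0.15 called 1 member, CDK6, in ICM vs young and 1, CCND2, in old vs young, a fit of only the compared groups called 1 in old vs young, and leaving out 1 lysate gave 0 to 1 there. The fit of only the compared groups gave no value for CCND2 in ICM vs young and CDK4 in ICM vs old in Ribo-seq and translational efficiency, where they missed the filter on low counts.

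The replicate numbers do not pair the samples, with correlations of same-numbered deviations from -0.0919 to 0.128. With the number as a replicate block, 3 and 1 pathway genes were called in Ribo-seq for old vs young and ICM vs old, and CDK4 lost its call in footprints (log2 change -1.05, adjusted p 0.0891) and in the 3′ UTR ratio, which left 0 members called. The same block changed no other call of a member. With no replicate block for the lysate, translational efficiency was called for 2 members in old vs young, CCND2 (0.96, adjusted p 0.0123) and CCND3 (0.70, adjusted p 0.0310).

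Over all transcript regions without length scaling, the mRNA shares in ICM minus young, old minus young and ICM minus old were -7.05, 1.96 and -9.01 percentage points for CCND1, -0.999, 2.41 and -3.41 for CCND2 and 8.05, -4.37 and 12.4 for CCND3. The CDK6 share differed by 29.2 and 37.5 points from young in ICM and old cells, and the log2 ratio of cyclins to kinases by 0.90 and 1.46. The longer 3′ UTRs enter this scale. With no scaling beyond library size, the median log2 change of all genes shifted to -0.11 in mRNA-seq and -0.12 in Ribo-seq for old vs young and to 0.11 and 0.10 for ICM vs old.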

Other observations

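Footprints in the 5′ UTR, where a transcript can hold upstream reading frames, were few. In reads per 1000000 CDS reads of the library, CDK6 had 8.36 ± 8.79 in young (mean ± SD, 25 reads in 3 lysates), 24.0 ± 12.3 in old (48 reads) and 1.48 ± 2.57 in ICM cells (1 read), and the young and old ranges overlapped. CDK4 had 5.44 ± 4.75 (19 reads), 2.14 ± 1.86 (7 reads) and 1.48 ± 2.57 (1 read). CCND1 had 12, 11 and 0 reads there in young, old and ICM cells, CCND2 had 1, 3 and 0, and CCND3 had 1, 2 and 0. Over all genes the 5′ UTR held 13.1, 3.92 and 2.90 footprints per 100 CDS footprints in the young lysates, 5.33, 110.1 and 16.9 in the old and 2.54, 5.81 and 4.47 in the ICM lysates.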
